A study of Felis catus with 6 samples.

Results

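The 4 genes described here form one axis of the interferon gamma response: the cytokine gene IFNG and its known targets CXCL9, IDO1 and IRF8. They were chosen by symbol, and each matched 1 of the 21529 Ensembl identifiers measured by RNA sequencing. The levels were compared between FCGS (feline chronic gingivostomatitis) lesions and healthy mucosa, with 3 biopsies in each group. The 3 cats, Bart, Jerome and Sadie, each gave 1 lesion and 1 biopsy of adjacent healthy mucosa, so the healthy biopsies also came from diseased animals. FCGS is an immune-mediated inflammation of the cat's mouth, and by the study's methods its cats had no teeth, received buprenorphine against pain and received no immunosuppressive therapy or antibiotics. The age and strain of these 3 cats were not given in the sources used here. The sample labels call the tissue gingival, while the study's methods place the biopsies beside the palatoglossal folds at the back of the mouth. The question was whether the targets followed the cytokine from library to library.

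Interferon gamma is secreted mainly by activated T cells and natural killer cells, which are driven to make it by interleukin 12 and interleukin 18 through the transcription factors STAT4 and T-bet. On the receiving cell, a receptor with 2 kinds of chain activates JAK kinases, and the signal turns on a set of genes in macrophages, dendritic cells, endothelium and epithelium. This scheme, and the gene roles given here, are known mainly from human and mouse. CXCL9 is a chemokine that draws in T cells and natural killer cells carrying the receptor CXCR3. IDO1 is the enzyme that takes tryptophan into the kynurenine pathway, which restrains T cells. IRF8 is a transcription factor that macrophages, dendritic cells and B cells also make without interferon, and that interferon gamma raises further.

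Levels were given as FPKM, fragments per kilobase of transcript scaled by library size, which adjusts for transcript length and depth. Values below 1 FPKM were raised to 1 before log2 was taken, and log2 differences are lesion minus healthy mucosa. Identifiers were kept if 3 or more of the 6 libraries reached 1 FPKM, and the 13327 kept were fitted together in limma, a linear model across genes, and "rose" and "fell" mark an adjusted p under 0.05 in that fit. Names could be given to 1929 identifiers, each of which the study had listed as differing at least 2-fold between these same tissues. A count of named genes that rose is therefore not independent evidence of direction, and it was read beside 2 backgrounds, all tested identifiers and the named identifiers that were higher in lesions. In a whole biopsy, more cells of a type and more RNA per cell cannot be told apart.

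The libraries differed in tissue content. The muscle creatine kinase gene CKM stood at 0.937, 1234 and 1041 FPKM in the lesions of Bart, Jerome and Sadie, against 0.528, 1.33 and 716 FPKM in their healthy mucosa. The keratin gene KRT4 had 8.99, 2534 and 569 FPKM in lesions, against 2089, 0 and 0 FPKM in healthy mucosa, where the values of 0 may be failed estimates. Another epithelium marker, COL17A1, was lower in every lesion (51.4, 114 and 42.7 FPKM, against 504, 222 and 240 FPKM in healthy mucosa). Of 8 epithelium markers, 4 had every lesion below every healthy library, as did 21.9% of tested identifiers, and 0 had every lesion above. The summed macrophage and T cell markers were higher in the lesion of every cat, and 10 macrophage markers summed to 1074 to 1697 FPKM in lesions, against 240 to 535 FPKM in healthy mucosa. Their part in the results was not tested.

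The cytokine was far less abundant than CXCL9 and IDO1, and its groups overlapped. IFNG (ENSFCAG00000009014) had 6.92, 11.8 and 4.49 FPKM in the lesions of Bart, Jerome and Sadie, against 1.05, 7.59 and 0.845 FPKM in their healthy mucosa. Each cat was higher in its lesion, but the healthy mucosa of Jerome stood above the lesions of Bart and Sadie. The lesions averaged 7.75 ± 3.75 FPKM and the healthy biopsies 3.16 ± 3.84 FPKM (SD, n = 3 each). On the log2 scale Bart differed by 2.72, Jerome by 0.64 and Sadie by 2.17. In limma the mean log2 difference was 1.84 (SE 0.87, 95% interval -0.27 to 3.96, adjusted p = 0.21), so IFNG did not pass. With the cat as a block, which sets each lesion against the healthy mucosa of its own cat, the limma adjusted p was 0.060. The healthy library of Jerome moved the value most: without it the log2 difference was 2.81 and the adjusted p 0.063. Among the genes of its library IFNG stood above 27.5% to 51.4% of tested identifiers in lesions and above 4.75% to 40.0% in healthy mucosa.

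**Figure D1:**
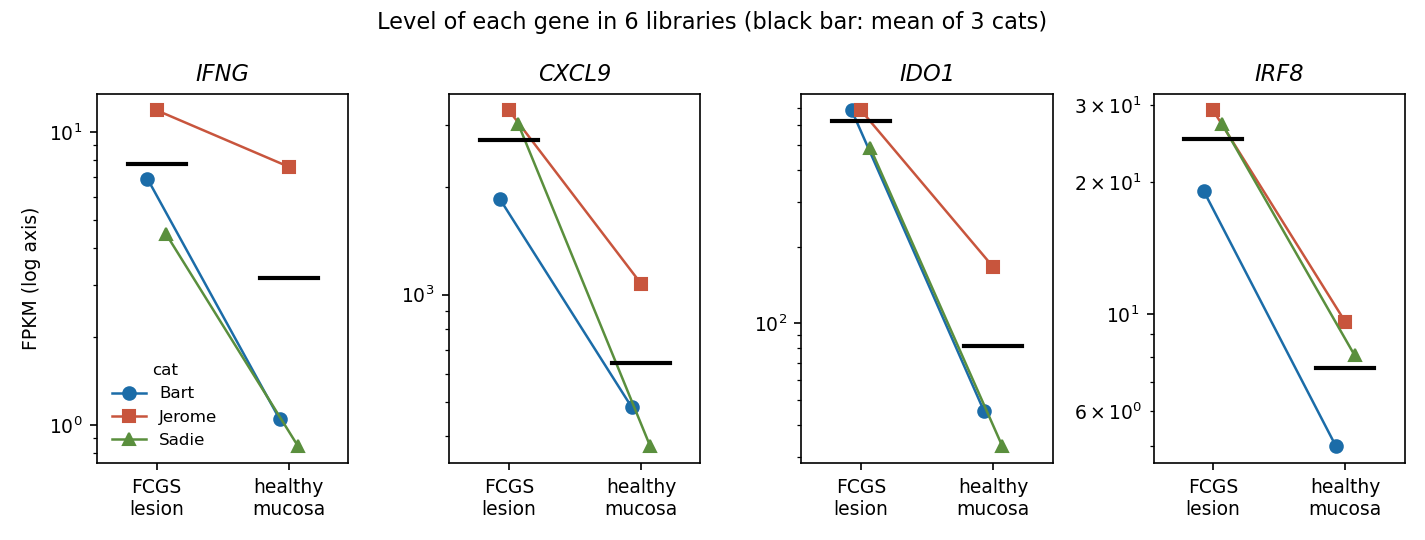
FPKM of IFNG, CXCL9, IDO1 and IRF8 on log axes that differ between panels, with FCGS lesions on the left and healthy mucosa on the right of each panel. Each line joins the 2 biopsies of 1 cat and black bars are group means. For IFNG the healthy mucosa of Jerome (7.59) lies above the lesions of Bart (6.92) and Sadie (4.49), while for the other 3 genes every lesion lies above every healthy biopsy.

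All 3 targets rose and their groups did not overlap. All 4 genes, IFNG included, were higher in the lesion of every cat, as were 28.6% of tested identifiers. Of all tested identifiers 5.31% were called higher in lesions and 16.7% had every lesion above every healthy library. Among named identifiers that were higher in lesions these shares were 31.5% and 68%.

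CXCL9 (ENSFCAG00000008365) was among the most abundant transcripts measured, in healthy mucosa as well. It had 1862, 3294 and 3023 FPKM in the lesions of Bart, Jerome and Sadie, against 483, 1074 and 375 FPKM in their healthy mucosa. It ranked 56th to 67th of the tested identifiers in lesions and 175th to 364th in healthy mucosa. The lesions averaged 2726 ± 761 FPKM and the healthy biopsies 644 ± 376 FPKM (SD, n = 3 each). The increase was smallest in Jerome, whose healthy mucosa already carried the highest healthy level, and largest in Sadie: 1.95 in Bart, 1.62 in Jerome and 3.01 in Sadie on the log2 scale. In limma CXCL9 was 4.57-fold higher (log2 difference 2.19, SE 0.46, 95% interval 1.08 to 3.30, adjusted p = 0.036). This call held without the lesion of Bart (adjusted p = 0.044) and was lost when any other single library was left out, with limma adjusted p values of 0.0501 (healthy mucosa of Jerome) to 0.12 (lesion of Sadie). It was also lost without any one cat, at 0.070 without Bart, 0.13 without Jerome and 0.28 without Sadie.

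IDO1 (ENSFCAG00000003636) had the largest difference of the 4 genes. It had 684, 684 and 488 FPKM in the lesions of Bart, Jerome and Sadie, against 45.4, 167 and 33.0 FPKM in their healthy mucosa. The lesions were thus alike, within 1.40-fold of each other, while the healthy biopsies differed up to 5.05-fold. The lesions averaged 619 ± 113 FPKM and the healthy biopsies 81.6 ± 73.8 FPKM (SD, n = 3 each). Bart's lesion was 15.1-fold higher than Bart's healthy mucosa, Jerome's 4.11-fold and Sadie's 14.8-fold. In limma the gene was 9.71-fold higher in lesions (log2 difference 3.28, SE 0.61, 95% interval 1.80 to 4.76, adjusted p = 0.029). The adjusted p stayed under 0.05 without the healthy mucosa of Jerome (0.034). Without each other library in turn it was 0.056 (lesion of Bart) to 0.097 (lesion of Sadie), and without a whole cat 0.091 (Bart), 0.091 (Jerome) and 0.26 (Sadie).

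IRF8 (ENSFCAG00000007615) changed by the most even amount over the cats. It had 19.1, 29.2 and 27.1 FPKM in the lesions of Bart, Jerome and Sadie, against 4.99, 9.60 and 8.06 FPKM in their healthy mucosa. The log2 differences of the 3 cats lay close together, at 1.94 in Bart, 1.60 in Jerome and 1.75 in Sadie. The lesions averaged 25.1 ± 5.35 FPKM and the healthy biopsies 7.55 ± 2.35 FPKM (SD, n = 3 each). In limma IRF8 was 3.40-fold higher (log2 difference 1.76, SE 0.33, 95% interval 0.97 to 2.56, adjusted p = 0.029). The limma adjusted p was 0.038 without the lesion of Bart, 0.048 without the healthy mucosa of Bart and 0.032 without both. Without the lesion or the healthy mucosa of Jerome it was 0.076 and 0.067, without those of Sadie 0.10 and 0.086, and without the whole cat 0.17 for Jerome and 0.26 for Sadie.

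The muscle-rich libraries, those with at least 100 FPKM of CKM, were the lesions of Jerome and Sadie and the healthy mucosa of Sadie. Leaving out these 3, a choice made after the data were seen, left 1 lesion against 2 healthy biopsies, with the lone lesion assumed to vary like the healthy ones. The log2 differences were then 1.29 for IFNG, 1.37 for CXCL9, 2.98 for IDO1 and 1.46 for IRF8, and the limma adjusted p values of the 3 targets were 0.44, 0.35 and 0.40. Within a cat, IDO1 was 15.1-fold higher in Bart, with CKM under 1 FPKM in both biopsies, and 14.8-fold higher in Sadie, with muscle RNA in both. In Jerome, where CKM was 1234 FPKM in the lesion and 1.33 FPKM in healthy mucosa, it was 4.11-fold higher. The part of muscle content in these differences was not tested.

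Within each of the 6 libraries the levels ran in the order CXCL9, IDO1, IRF8 and IFNG. In lesions the ranges of neighbours in this order did not overlap. In healthy mucosa the ranges of IRF8 (4.99 to 9.60 FPKM) and IFNG (0.845 to 7.59 FPKM) did overlap.

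The targets followed the cytokine in part. The healthy biopsies ranked Jerome, Bart, Sadie from high to low for IFNG, CXCL9 and IDO1, an order that 8.85% of all tested identifiers shared, and Jerome, Sadie, Bart for IRF8. For IFNG, Bart (1.05 FPKM) and Sadie (0.845 FPKM) lay next to the floor of 1 FPKM, so their order is uncertain. In lesions IDO1 kept the order of IFNG, with Bart and Jerome level, while CXCL9 and IRF8 were lower in Bart than in Sadie although IFNG was higher in Bart. Jerome was highest in both tissues for all 4 genes, as it was for 10.5% of tested identifiers. Jerome also had the smallest lesion difference for all 4 genes, as in 42.8% of the tested identifiers that were higher in every lesion. The healthy mucosa of Jerome also held the highest summed macrophage (535 FPKM), B cell (101 FPKM) and T cell (218 FPKM) markers of the 3 healthy biopsies, the T cell sum only just above that of Sadie (209 FPKM). Sadie's healthy mucosa had more of the natural killer cell (64.5 FPKM, Jerome 59.5), dendritic cell (38.7, Jerome 36.3) and neutrophil markers (51.9, Jerome 43.0). The part of those cells in the shared order was not tested.

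The lesion differences of IFNG, IDO1 and IRF8 shared an order of cats, Bart, Sadie, Jerome from large to small. For IDO1, Bart (3.91) and Sadie (3.89) were nearly level. CXCL9 ran Sadie, Bart, Jerome. The share of tested identifiers with the order of IFNG was not computed. The amounts of the changes did not run in step. IFNG spanned 8.98-fold among healthy biopsies, against 5.05-fold for IDO1, 2.86-fold for CXCL9 and 1.92-fold for IRF8. The lowest IFNG value of that span, 0.845 FPKM in Sadie, lay below the floor. In Jerome a log2 difference of 0.64 in IFNG went with 1.62 in CXCL9, 2.04 in IDO1 and 1.60 in IRF8, while in Bart the difference of 2.72 in IFNG went with 1.95, 3.91 and 1.94 in the same targets. IRF8 and CXCL9 thus differed by 1.60 to 1.95 in both cats. In Sadie the difference of 2.17 in IFNG went with 3.01 in CXCL9, 3.89 in IDO1 and 1.75 in IRF8.

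The ratio of a target to IFNG within 1 library is not altered by any scaling that all genes of that library share. In the healthy mucosa of Bart and Sadie IFNG was next to the floor (1.05 and 0.845 FPKM), so ratios to it there are uncertain. IDO1 stood at 98.9, 57.8 and 109 times IFNG in the lesions of Bart, Jerome and Sadie, against 43.4, 21.9 and 39.0 times in their healthy mucosa. This ratio was higher in the lesion of every cat, and its groups did not overlap. How many tested identifiers had such a ratio to IFNG was not computed, so whether IDO1 stands out in this is not known. With IFNG raised to at least 1 FPKM, the log2 difference of IDO1 exceeded that of IFNG by 1.19 in Bart, 1.40 in Jerome and 1.72 in Sadie.

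The other targets did not keep one direction against the cytokine. CXCL9 stood at 269, 278 and 674 times IFNG in lesions, against 461, 141 and 444 times in healthy mucosa, so the ratio was lower in Bart's lesion and higher in those of Jerome and Sadie. IRF8 stood at 2.76, 2.47 and 6.05 times IFNG in lesions, against 4.77, 1.26 and 9.54 times in healthy mucosa, lower in the lesions of Bart and Sadie and higher in that of Jerome. These ratios are given as values with no test. No correlation was computed, because 6 libraries of 3 cats are not 6 independent samples.

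**Figure D2:**
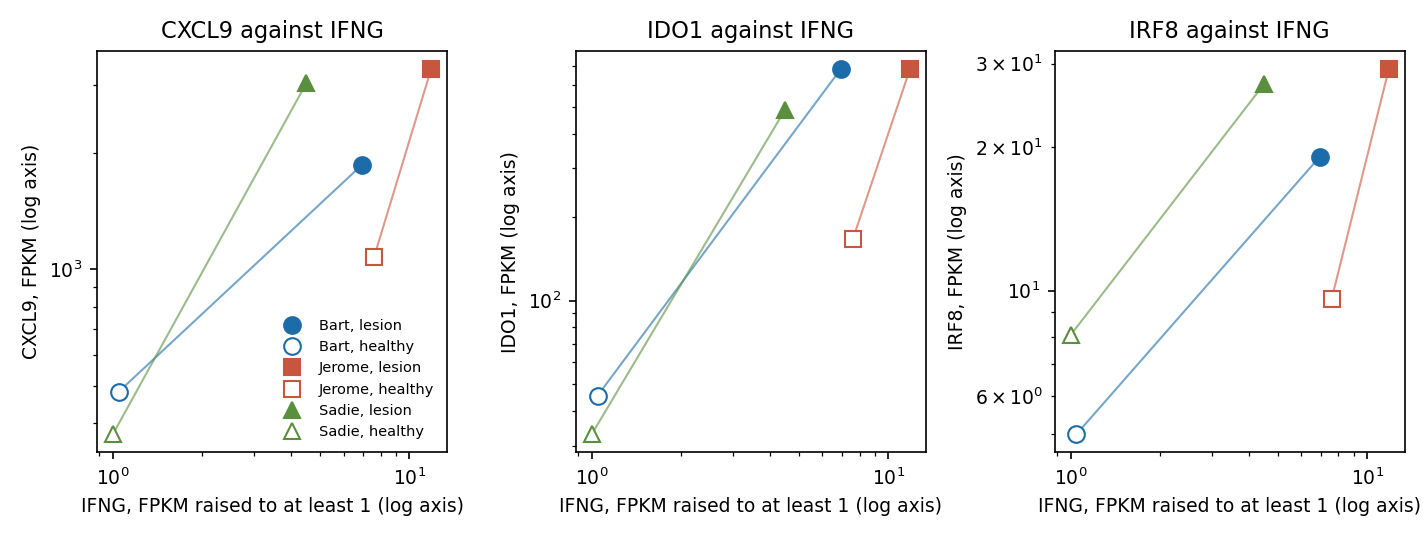
FPKM of CXCL9, IDO1 and IRF8 (vertical log axes) against FPKM of IFNG raised to at least 1 (horizontal log axes). Filled symbols are FCGS lesions, open symbols healthy mucosa, and each line joins the 2 biopsies of 1 cat. The short, steep line of Jerome shows a log2 difference of 0.64 in IFNG beside 1.62, 2.04 and 1.60 in the targets.

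Distance from the cytokine was also measured as the root-mean-square difference of log2 levels over the 6 libraries, after each gene was centered on its own mean. CXCL9 lay 0.70 from IFNG (47th nearest of the 13326 other tested identifiers), IDO1 0.82 (149th) and IRF8 0.89 (255th), and the median identifier lay at 1.50. The distance includes the lesion difference, and every named gene was listed as differing at least 2-fold. Nearness among named genes was thus partly set in advance. Of the 1928 other named genes, CXCL9 was the 23rd nearest to IFNG, IDO1 the 81st and IRF8 the 136th. Seen from the targets, IFNG was the 593rd nearest identifier to CXCL9, the 156th to IDO1 and the 3441st to IRF8, whose median identifier lay at 1.08. Among named genes IFNG was the 359th nearest to CXCL9, the 96th to IDO1 and the 822nd to IRF8. The named genes nearest to IFNG were CCRL2 (0.46), SLC2A6 (0.51), PRKCB (0.53), CLEC4E (0.54) and BATF3 (0.58). The named genes nearest to CXCL9 were BATF2 (0.18), GBP6 (0.19), TECPR1 (0.21), P2RY13 (0.22) and PDCD1 (0.26). Nearest to IDO1 were IRG1 (0.19), CYBB (0.27), SLAMF6 (0.33), SLC11A1 (0.37) and CHI3L1 (0.38). Nearest to IRF8 were IL10RA (0.08), AKNA (0.10), AGAP2 (0.11), RASGRP1 (0.11) and ITGB7 (0.12). These distances have no test, and the 4 sets of neighbors shared no gene.

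The members were next set against marker genes of immune cells, as the log2 difference of a gene minus that of the mean marker. IRF8 changed by almost the same amount as 13 T cell markers, exceeding them by 0.21 in Bart, 0.10 in Jerome and 0.14 in Sadie, and changed by less than 10 macrophage markers, at -0.61, -0.16 and -0.37. It also changed by less than 7 B cell markers, at -0.08, -0.86 and -1.86. IDO1 exceeded the T cell markers by 2.19, 0.53 and 2.28 in the same cats and the macrophage markers by 1.36, 0.27 and 1.76, so it was above both in every cat. Against the B cell markers IDO1 stood at 1.90, -0.42 and 0.27, above them in Bart and Sadie and below them in Jerome.

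Against these lists IFNG kept no direction over the cats, and CXCL9 kept one for each list except the macrophage markers. IFNG stood at 1.00, -0.87 and 0.56 against T cell markers and at 1.27, -0.91 and 0.68 against 6 natural killer cell markers, below both in Jerome only. Against B cell markers IFNG stood at 0.71, -1.82 and -1.45, below them in Jerome and Sadie. CXCL9 stood at -0.60, -0.15 and 0.89 against macrophage markers, at 0.22, 0.11 and 1.40 against T cell markers and at -0.07, -0.84 and -0.60 against B cell markers. Against 7 dendritic cell markers CXCL9, IDO1 and IRF8 were higher in all 3 cats, with IRF8 at 0.40, 0.86 and 1.14. The T cell markers themselves summed to 275, 637 and 772 FPKM in lesions, against 78.5, 218 and 209 FPKM in healthy mucosa. Of the 13, only CD28 passed without the block (named after its values were seen), and all 13 passed with it. With the block 12.2% of all tested identifiers were called higher in lesions.

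**Figure D3:**
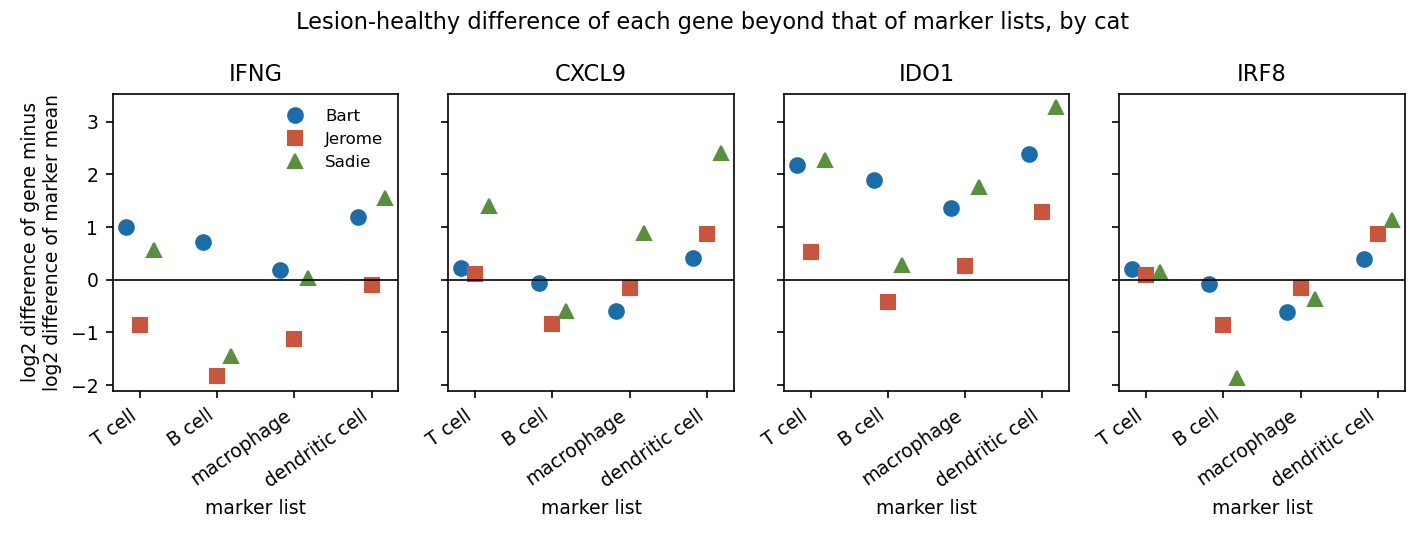
Log2 lesion-minus-healthy difference of IFNG, CXCL9, IDO1 and IRF8 minus the log2 difference of the mean T cell, B cell, macrophage or dendritic cell marker, 1 symbol per cat. A value of 0 means that a gene changed as much as the markers. IRF8 lies at 0.10 to 0.21 against T cell markers in the 3 cats, and IDO1 lies above T cell and macrophage markers in all 3.

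Upstream of the cytokine, 11 of 17 listed genes that induce IFNG had a name. All 11 were higher in the mean lesion, as were 1292 of the 1929 named identifiers. HLX and STAT4 rose (18.2%, beside 31.5% of named identifiers higher in lesions), and 9 of the 11 rose with the cat as a block, when 12.2% of all tested identifiers did. STAT4, which carries the interleukin 12 signal, had 8.76, 5.51 and 8.49 FPKM in lesions, against 1.72, 2.84 and 3.49 FPKM in healthy mucosa (limma log2 difference 1.53, adjusted p = 0.048). HLX, a homeobox factor that acts with T-bet, had a limma log2 difference of 1.70 and passed without the block (adjusted p = 0.041) but not with it (0.053). TBX21, which encodes T-bet, had 6.68, 34.9 and 36.7 FPKM in lesions, against 1.28, 8.01 and 5.06 FPKM in healthy mucosa. Its groups overlapped, since Bart's lesion was below Jerome's healthy mucosa, and it passed limma only with the block (log2 difference 2.46, adjusted p = 0.14 without and 0.022 with the block). TBX21 was lowest in Bart among the lesions, whereas IFNG was lowest in Sadie.

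The interleukin 18 receptor was uneven among the cats. IL18RAP, one of its chains, had 29.1, 7.86 and 4.21 FPKM in lesions, against 1.42, 2.28 and 0.103 FPKM in healthy mucosa, with the highest value in Bart (limma adjusted p = 0.065, and 0.044 with the block). EBI3, a subunit of interleukin 27, had limma adjusted p values of 0.080 without and 0.026 with the block. RUNX3, a T cell transcription factor, had 0.069 and 0.026, and IL15RA, which presents interleukin 15, 0.065 and 0.027.

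Of 11 genes that transmit the signal from the receptor, only PTPN6 had a name, and the other 10, which include the receptor chains, JAK1 and JAK2, were not analysed here. PTPN6, a phosphatase that damps JAK signaling, rose in lesions (43.4, 51.3 and 53.6 FPKM in lesions, against 15.0, 25.5 and 21.2 FPKM in healthy mucosa, limma adjusted p = 0.031).

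Downstream, 20 of 34 listed response genes had a name and 19 of them were higher in the lesion of every cat. So were 1161 of the 1292 named identifiers that were higher in lesions. Of the 20, 11 rose (55%, beside 31.5% of named identifiers higher in lesions) and none fell. CXCL9, IDO1 and IRF8 are among both the 20 and the 11, so these counts are not separate from the results above. With the block 18 rose and 1 fell, beside 12.2% and 11.1% of all tested identifiers. The median log2 difference of the 20 was 2.07, beside -0.07 for all tested identifiers and 1.61 for named identifiers higher in lesions. The count of 11 was lower whenever a single library was left out: it was 5 without the lesion of Bart or the healthy mucosa of Jerome, 3 without the healthy mucosa of Bart, 1 without the lesion of Jerome and 0 without either biopsy of Sadie. Over all tested identifiers, 707 were called higher in lesions, 0 without Sadie's lesion (1579 at an unadjusted p under 0.05) and 1 without Sadie's healthy mucosa.

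SERPING1, the inhibitor of complement C1, had the smallest p of these genes, with 387, 333 and 307 FPKM in lesions, against 68.1, 121 and 67.1 FPKM in healthy mucosa (limma log2 difference 2.05, adjusted p = 0.021). IRG1, which makes the antimicrobial metabolite itaconate in macrophages, had 22.2, 25.0 and 13.3 FPKM in lesions, against 1.63, 6.85 and 0.130 FPKM in healthy mucosa (limma log2 difference 3.12, adjusted p = 0.047). Its pattern was that of IDO1, with Jerome highest in both tissues. CYBB, the catalytic subunit of the phagocyte oxidase, had 31.3, 40.5 and 33.1 FPKM in lesions, against 3.67, 12.2 and 2.45 FPKM in healthy mucosa (limma log2 difference 2.86, adjusted p = 0.036).

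GBP6, a guanylate-binding protein of cell-autonomous defense, had 157, 208 and 202 FPKM in lesions, against 29.2, 78.5 and 21.3 FPKM in healthy mucosa (limma log2 difference 2.36, adjusted p = 0.036). BATF2, a transcription factor induced in macrophages, had 38.5, 76.9 and 88.3 FPKM in lesions, against 12.1, 23.7 and 7.59 FPKM in healthy mucosa (limma log2 difference 2.30, adjusted p = 0.041). Both had groups that did not overlap, and in both Jerome was the highest healthy biopsy. The remaining genes that rose were CTSS, PDCD1LG2 and TNFAIP2. ANKRD22 was the gene that went the other way, at -1.28 on the log2 scale (limma adjusted p = 0.056, and 0.024 with the block). PDCD1LG2, TNFAIP2 and ANKRD22 were named after their values were seen.

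Jerome had the smallest difference for 16 of the 19 response genes that were higher in every lesion, 84.2%, beside 42.8% over all tested identifiers that were higher in every lesion. Of the 20, 10 were highest in Jerome in both tissues, 50%, beside 10.5% of tested identifiers. The counts of 16 and 10 both include CXCL9, IDO1 and IRF8, whose pattern in Jerome is described above. Being highest in Jerome in both tissues was as common or more so for macrophage markers (50%) and listed genes of type I interferon (60%) and antigen presentation (77.8%). It was less common for IRF8 partners (45.5%), T cell markers (38.5%), the CXCR3 list (27.8%), IFNG inducers (9.09%) and B cell markers (0%). Among markers that were higher in every lesion, the smallest difference in Jerome was as common for macrophage (9 of 10) and plasma cell markers (4 of 4). It was less common for B cell (33.3%), dendritic cell (40%), T cell (46.2%), natural killer cell (50%), neutrophil (60%) and endothelium markers (62.5%). The part of those cells in the pattern was not tested.

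**Figure D4:**
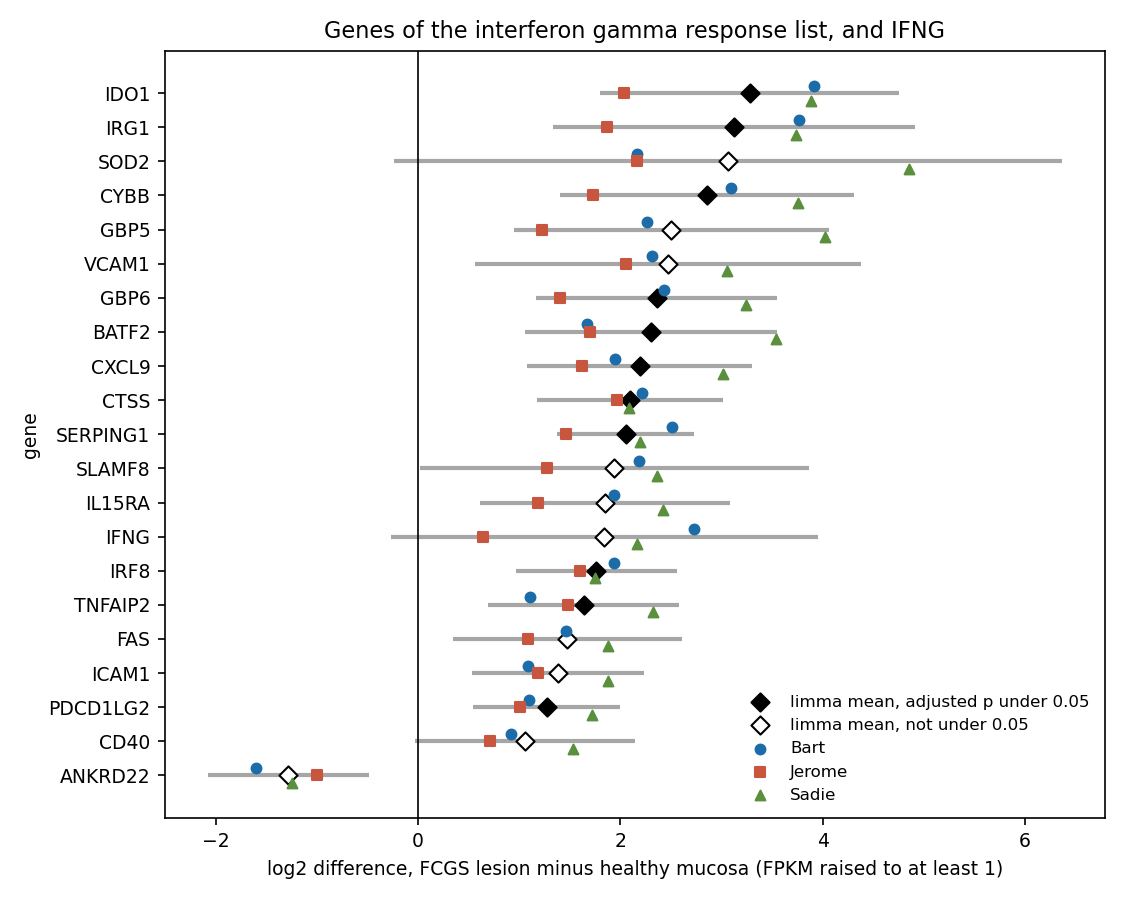
Log2 difference, FCGS lesion minus healthy mucosa, of the 20 named interferon gamma response genes and IFNG. Diamonds are limma means (filled where the adjusted p is under 0.05), gray bars their 95% intervals, and colored symbols the 3 cats, which are shifted up or down to stay visible. IDO1 has the largest mean (3.28), ANKRD22 is the one gene below 0 (-1.28), and Jerome has the smallest difference in 16 of the 19 genes other than IFNG that lie above 0.

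Antigen presentation is another arm of the response. Of 21 listed genes 9 had a name, and 5 of them rose (CD74, CTSB, CTSH, CTSS and LGMN). With the block 7 rose, beside 12.2% of all tested identifiers. The 5 were 55.6% of the 9, beside 31.5% of named identifiers higher in lesions, while the median log2 difference of 1.38 was below their 1.61. CD74, the class II invariant chain, had 1556, 2561 and 2295 FPKM in lesions, against 763, 1076 and 628 FPKM in healthy mucosa (limma adjusted p = 0.041). The lysosomal proteases CTSS, CTSH, CTSB and LGMN had limma log2 differences of 2.09, 1.56, 1.30 and 1.58 and adjusted p values of 0.019 to 0.028. HLA-DMA, which helps load peptide, passed limma only with the block (log2 difference 1.38, adjusted p = 0.067 without and 0.022 with it).

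Of 24 listed genes of the CXCR3 axis and cytotoxic lymphocytes, 18 had a name. The list holds CXCL9 itself, so its counts are not separate from the results above. CXCL9, the chemokine CCL4 and the inhibitory receptor LAG3 rose and none fell. The 3 were 16.7% of the 18, less than the 31.5% of named identifiers higher in lesions. With the block 15 of the 18 rose, beside 12.2% of all tested identifiers, which unlike the 18 were not chosen for a 2-fold difference. LAG3 had 9.73, 18.9 and 9.80 FPKM in lesions, against 3.77, 2.59 and 1.65 FPKM in healthy mucosa (limma log2 difference 2.27, adjusted p = 0.030). CCL4 had 235, 511 and 287 FPKM in lesions, against 77.7, 113 and 142 FPKM in healthy mucosa (limma log2 difference 1.60, adjusted p = 0.044). CXCR3 itself, named after its values were seen, had 7.13, 29.0 and 42.4 FPKM in lesions, against 2.19, 4.87 and 10.7 FPKM in healthy mucosa (limma adjusted p = 0.15, and 0.022 with the block). Like CXCL9 it was lowest in Bart among lesions, but in healthy mucosa it was highest in Sadie, where CXCL9 was lowest.

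The granule protease GZMA and the granule protein NKG7 passed only with the block, with limma adjusted p values of 0.094 and 0.17 without it and 0.022 and 0.024 with it. NKG7 had 30.8, 128 and 94.5 FPKM in lesions, against 13.3, 31.7 and 37.8 FPKM in healthy mucosa. Bart had the lowest level in both tissues. NCR3, a receptor of natural killer cells, was likewise lowest in Bart.

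Around IDO1, 5 of 17 listed genes of tryptophan and kynurenine metabolism had a name, and IDO1 was the one that rose. NADSYN1 was the one that fell, as 6.61% of all tested identifiers did. NADSYN1, which makes NAD at the end of the pathway, fell to 8.74, 12.3 and 9.26 FPKM in lesions, against 36.4, 37.0 and 48.4 FPKM in healthy mucosa (limma log2 difference -2.01, adjusted p = 0.019). CCBL1, which turns kynurenine into kynurenic acid, was lower in each lesion but did not pass (15.1, 11.6 and 10.5 FPKM in lesions, against 25.0, 16.5 and 40.1 FPKM in healthy mucosa, limma adjusted p = 0.11). IL4I1, another enzyme that acts on tryptophan and related amino acids, had 7.77, 21.3 and 13.1 FPKM in lesions, against 2.33, 5.74 and 6.93 FPKM in healthy mucosa. It passed limma only with the block (adjusted p = 0.12 without and 0.032 with it). AHR, the receptor for kynurenine, had 38.6, 10.5 and 8.35 FPKM in lesions, against 14.9, 3.81 and 2.06 FPKM in healthy mucosa, highest in Bart in both tissues (limma adjusted p = 0.27, and 0.024 with the block).

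Around IRF8, 11 of 14 listed partners and dendritic cell genes had a name. IRF8, SPI1 and IKZF1 rose and none fell. With the block 6 rose, beside 12.2% of all tested identifiers. The 3 were 27.3% of the 11, beside 31.5% of named identifiers higher in lesions. SPI1, the myeloid factor PU.1 that binds DNA with IRF8, had 215, 146 and 104 FPKM in lesions, against 22.3, 50.1 and 24.9 FPKM in healthy mucosa (limma log2 difference 2.29, adjusted p = 0.027). IKZF1, a lymphoid and myeloid factor, had 10.6, 14.1 and 17.5 FPKM in lesions, against 1.29, 4.32 and 2.75 FPKM in healthy mucosa (limma log2 difference 2.48, adjusted p = 0.033). SPI1 was highest in Bart among lesions, where IRF8 was lowest.

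Among the listed dendritic cell genes, FLT3, WDFY4 and ZBTB46 passed only with the block and BATF3 in neither fit. CD207, the langerin gene of Langerhans cells, went the other way and is named after its values were seen. It was listed at 0, 0 and 0.106 FPKM in lesions, against 1.36, 1.65 and 4.93 FPKM in healthy mucosa. The gene did not pass limma without the block (adjusted p = 0.18) or with it (0.14). Its limma adjusted p depended on how values below 1 FPKM were treated: 0.043 with 1 FPKM added in place of the floor and 0.031 with 0.1 FPKM added. CD207 reached 1 FPKM in healthy mucosa only, so it entered the fit through the group where it was high. The direction was thus set by the filter, and these p values are not evidence of a difference. BATF3 had 24.1, 24.6 and 11.7 FPKM in lesions, against 6.22, 17.2 and 5.22 FPKM in healthy mucosa (limma log2 difference 1.21, adjusted p = 0.19). FLT3, the growth factor receptor of these cells, had limma adjusted p values of 0.090 without and 0.038 with the block. WDFY4, needed for cross-presentation, had 0.076 and 0.024, and ZBTB46, a factor of conventional dendritic cells, 0.051 and 0.033.

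For comparison, 10 of 25 listed genes of the type I interferon response had a name and none rose or fell in limma. With the block 4 rose and 1 fell, beside 12.2% and 11.1% of all tested identifiers. At an unadjusted limma p under 0.05 without the block, 4 of the 10 were higher in lesions. Their median log2 difference was 1.30, beside 1.61 for named identifiers higher in lesions. SIGLEC1, a macrophage receptor that interferon induces, had 5.52, 49.5 and 18.1 FPKM in lesions, against 0.297, 4.68 and 0.970 FPKM in healthy mucosa (limma log2 difference 3.35, adjusted p = 0.073, and 0.022 with the block). ISG20, an interferon-induced exonuclease, had 208, 791 and 843 FPKM in lesions, against 114, 179 and 55.2 FPKM in healthy mucosa (limma adjusted p = 0.075). The difference between the 2 response lists was not tested. CXCL9 and several other genes of the interferon gamma list also respond to type I interferon.

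Across the 8 lists 79 distinct named genes were tested, of which 22 rose and 1 fell. CXCL9, IDO1 and IRF8 are among the 22. The 22 were 27.8%, beside 5.31% of all tested identifiers and 31.5% of named identifiers higher in lesions. With the cat as a block, 57 rose and 3 fell, beside 12.2% and 11.1% of all tested identifiers. The 79 genes were all listed by the study as differing at least 2-fold, and no blocked share of named identifiers was computed.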

How the data were processed

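The authors deposited FPKM values for 21529 Ensembl identifiers in each of the 6 libraries, made with Cuffnorm. The tools in the submitters' processing notes are bcl2fastq, HISAT, Cufflinks and Cuffnorm, with no versions. A genome build was not given in the sources used here. Per the labels, poly-adenylated RNA from 200 ng of total RNA was made into stranded libraries with 15 cycles of PCR and read as single reads of 50 bp, while the study's methods give longer paired reads. The files hold no read counts, so depth is unknown and no count model was used. Between 4688 and 4927 identifiers per library were listed at 0, which may be failed estimates.

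Names came from the study's supplementary table, whose 1981 rows at hand each matched 1 identifier by the tissue values, while 5 symbols had been turned into dates. In total 1929 identifiers had a name. FPKM below 1 was raised to 1 and log2 was taken. The 13327 identifiers that reached 1 FPKM in 3 or more of the 6 libraries entered limma 3.58.1 (R 4.3.3, two-sided), with a term for tissue alone and a trend of variance on mean level, and p-values were adjusted by Benjamini-Hochberg at 0.05. The script was tested on simulated data. Tables were joined with pandas 2.3.3 and numpy 2.4.6 in Python 3.11.15, and figures drawn with matplotlib 3.10.9.

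Each cat gave both tissues, so the cat pairs the libraries. Deviations from the group means correlated across genes at 0.49 (Bart), 0.20 (Jerome) and 0.41 (Sadie) within a cat and at -0.44 to 0.27 between cats. The fit without this block was the main one because the study compared tissue means. Alternatives were the block, other floors, filters and scalings, and leaving out each library or cat. In the main fit p-values measure the spread among the libraries of each tissue, with the 6 libraries taken as independent. Only in the blocked fit do they measure the spread of the lesion differences between the cats. Both rest on these 3 cats.

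The 4 genes and the lists were chosen with earlier results of these data known. Besides the 4, named genes were, of each pathway list, all with a name (6 or fewer) or up to 6 with the smallest p, of each marker list the 2 with the highest mean, and the 5 nearest to each of the 4. Exceptions are marked as named after their values were seen. No sequence of these genes was used here, and a planned description of promoter motifs was not made.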

Additional observations from a re-analysis of the deposited data

How the results depend on the processing

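The log2 differences of IFNG, CXCL9, IDO1 and IRF8 were above 0 in every fit run. Adding 1 or 0.1 FPKM in place of the floor, upper-quartile or quantile scaling and a fit without the mean-variance trend changed no call of the 4 genes. IFNG was not tested where at least 1 FPKM was required in all 6 libraries. With no filter on low values, limma adjusted p values were 0.088 for CXCL9 (2.19), 0.076 for IDO1 (3.28) and 0.064 for IRF8 (1.76), 205 identifiers were called higher and 321 lower, and 3 pathway list genes higher. Pathway list genes called lower numbered 2 with 1 or 0.1 FPKM added and with at least 1 FPKM in all 6 libraries.

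With the cat as a block, 1622 identifiers were called higher and 1476 lower, 57 pathway list genes higher and 3 lower. The blocked adjusted p values of CXCL9, IDO1, IRF8 and IFNG in limma were 0.025, 0.024, 0.022 and 0.060. No call of the 4 genes changed. With the block and 1 cat left out, log2 differences were 1.78 to 2.48 for CXCL9, 2.96 to 3.90 for IDO1, 1.68 to 1.84 for IRF8 and 1.40 to 2.45 for IFNG, and 0, 1, 1 and 0 of the 3 fits passed.

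Leaving out 1 library or 1 cat without the block gave 1.78 to 2.64 for CXCL9, 2.81 to 3.98 for IDO1, 1.49 to 1.96 for IRF8 and 1.35 to 2.81 for IFNG, with 1, 1, 3 and 0 of 9 fits past the threshold. Over all fits that left out a library or cat, identifiers called higher ranged from 0 to 1036 and lower from 0 to 1100, and pathway list genes called higher from 0 to 21 and lower from 0 to 2. Fewer samples entered these fits. Without the 3 libraries rich in skeletal muscle RNA, added after seeing the data, the values were 1.37 for CXCL9, 2.98 for IDO1, 1.46 for IRF8 and 1.29 for IFNG, no identifier or pathway list gene passed in either direction (0, with 1256 higher and 1067 lower at an unadjusted p under 0.05), and HELZ2 (-0.10), KRT4 (-2.35), CKM (-0.20) and MYLPF (-1.03) turned negative. The cause was not tested.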
